A study of Homo sapiens with 6 samples.

Results

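The unfolded protein response (UPR) and protein folding in the endoplasmic reticulum (ER) were followed through 34 genes, chosen by symbol from what their products do. Earlier results of these data were known when the list was drawn up, but its rule uses no measured value. All 34 were listed in the deposited gene table of 35554 genes, and all 34 were among the 19711 genes with enough counts to be tested. They fall into 6 roles: 16 chaperones and folding enzymes, 1 subunit of the translocon (the channel through which new proteins enter the ER), 4 genes of ER-associated degradation (ERAD), 3 stress sensors, 3 transcription factors of the basic leucine zipper (bZIP) family, and 7 genes of the PERK-ATF4 branch. ATF6, ATF4 and DDIT3 are bZIP proteins as well, but were placed with the sensors (ATF6) or the PERK-ATF4 branch.

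RNA was sequenced from parental LNCaP cells (3 libraries) and from LNCaP-enzaR cells (3 libraries). LNCaP is an established line from a metastasis of human prostate carcinoma that grows in response to androgens, and LNCaP-enzaR is its derivative resistant to enzalutamide, an inhibitor of the response to androgens. By the study's methods, the derivative was raised from its parent by long exposure to enzalutamide and was then maintained on a lower dose of it. The labels describe triplicate flasks of each line harvested before confluence, do not state whether the drug was present at harvest, and give 1 resistant line, so that resistance, the drug and any other difference between the lines cannot be told apart.

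When unfolded proteins accumulate in the ER, 3 sensors in its membrane respond. IRE1 (gene ERN1) splices the XBP1 mRNA, ATF6 is cut to release a transcription factor, and PERK (gene EIF2AK3) phosphorylates the initiation factor eIF2α, which lowers translation in general while favouring that of ATF4. XBP1 and ATF6 raise the genes of chaperones and of ERAD, ATF4 raises genes of amino acid supply and of the stress response, and in the secretory epithelium of the prostate this machinery serves the folding of secreted proteins. Splicing, cleavage and phosphorylation do not show in counts per gene, so the values that follow describe mRNA levels only.

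Most of the genes that fell were folding genes, 13 of 18. In LNCaP-enzaR 18 of the 34 genes were lower and 2 were higher past the threshold, which was an adjusted p of at most 0.05 in the edgeR quasi-likelihood test together with a change of at least 1.5-fold. The other 14 genes did not pass it. Among all tested genes 42.7% passed, 19.5% as lower and 23.3% as higher in LNCaP-enzaR, against 58.8%, 52.9% and 5.88% of the 34. Log2 fold changes are LNCaP-enzaR over parental and are given ± their standard error, and levels ± SD (n = 3 each). The median was −0.62 over the 34 genes and 0.01 over all tested genes, and 27 of the 34 values were negative. For 33 of the 34 genes the 3 libraries of one line did not overlap with the 3 of the other, a separation found for 70.6% of all tested genes. The exception was DNAJB9.

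**Figure D1:**
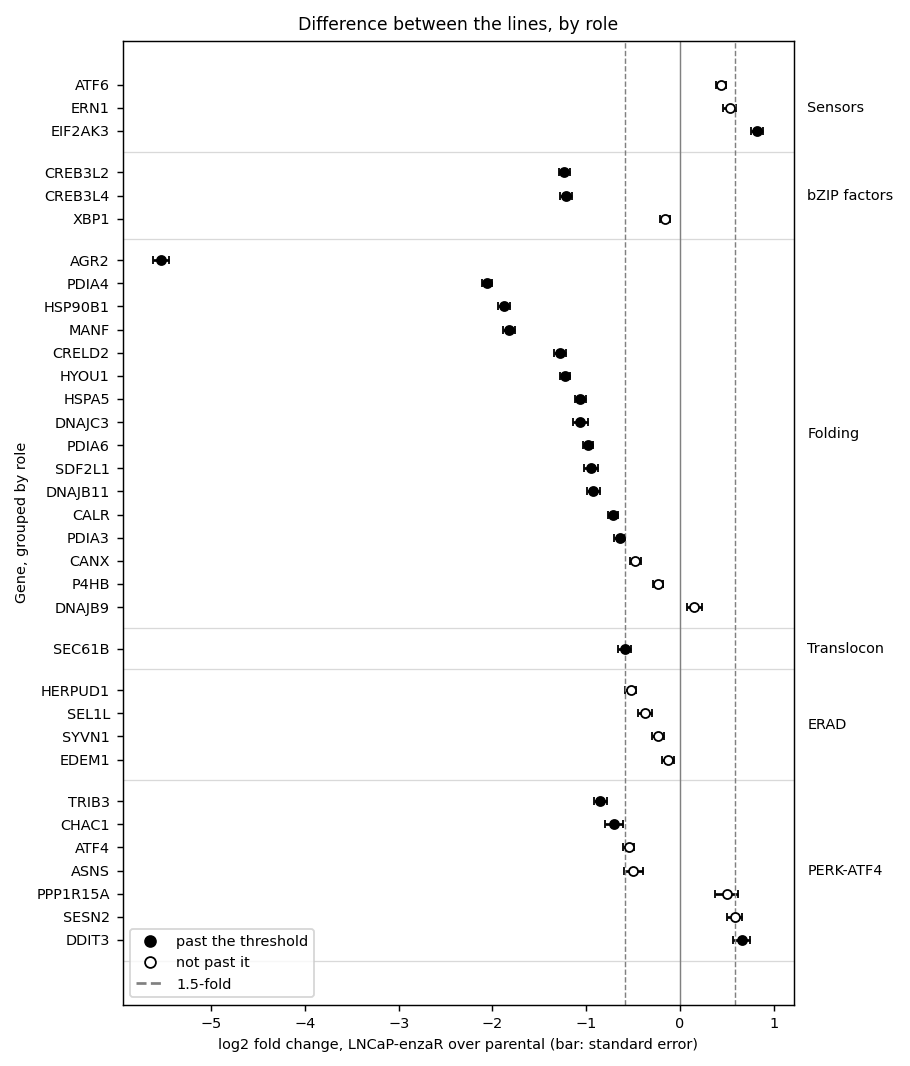
Each point is the log2 fold change of a gene (LNCaP-enzaR over parental, n = 3 libraries each) with its standard error as a bar, and genes are grouped by role. Filled points are past the threshold and dashed lines mark 1.5-fold: 13 of 16 folding genes are filled on the left, no ERAD gene is filled, and the 3 sensors all sit to the right of 0.

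Libraries held 77759122 to 98616465 counts, and the lowest count of any of the 34 genes in any library was 135. Values are given as CPM, counts per 1000000 of the scaled library, which is a share of the RNA sequenced. In bulk RNA a lower share can come from fewer cells that express a gene or from less of its RNA per cell, and these cannot be told apart. Transcripts of the mitochondrial genome took 6.87% ± 0.174 of a parental library and 15.1% ± 0.415 of an LNCaP-enzaR library (mean ± SD of 3). With those genes left out, the median of the folding genes was −1.02, as it was with them. The scaling hardly depends on those genes (median shift of all genes 0.004), so leaving them out is no test of the part played by the mitochondrial share. All 7 luminal prostate markers reported were expressed in both lines, with means from 94.9 to 1190 CPM. They went in different directions: KLK3 (log2 fold change −3.08) and KLK2 (−1.996) fell most, HOXB13 and FOLH1 also fell, KRT8 rose (1.16), and FOXA1 (−0.05) and KRT18 (0.50) did not pass. Their summed level was 4107 to 4176 CPM in parental cells and 2710 to 3024 CPM in LNCaP-enzaR, and without KLK3 and KLK2 it was 2552 to 2568 and 2479 to 2769 CPM. Of 11 markers of basal, fibroblast, immune and endothelial cells, KRT5, TP63, CD3E and CDH5 were at or near 0 in both lines. The summed levels of the fibroblast markers (12.4 to 15.1 CPM against 4.10 to 4.82, nearly all from COL1A1) and of the endothelial markers (5.47 to 6.10 against 3.93 to 4.35, nearly all from VWF) were lower in LNCaP-enzaR, as was that of the basal markers (0.923 to 1.71 against 0.433 to 0.80, from KRT14), and the immune markers summed to at most 0.174 CPM in any library. The part of these shifts in the results was not tested.

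Motifs known from UPR promoters were looked up in RefSeq promoter windows (assembly GRCh38.p14), which run from 250 bases before to 50 bases after each annotated start. A window was found for 33 of the 34 genes, all but PDIA3. The motifs searched, all on both strands and as exact letters, were the ER stress response element ERSE (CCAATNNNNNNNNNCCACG), its other form ERSE-II (ATTGG and CCACG with 1 base between them), the UPR element UPRE (TGACGTGG) and the C/EBP-ATF response element CARE (TGATGNAA). ERSE was present for 7 of 33 genes (21.2%) against 25 of 27305 genes in all (0.0916%), and ERSE-II for 3 of 33 (9.09%) against 19 of 27305 (0.0696%). UPRE was present for HYOU1 alone, 3.03% of the genes against 0.927% in all. CARE was present for ASNS, CHAC1, CREB3L2 and HERPUD1, 12.1% against 4.46% in all. A match of letters is a description and not a sign of binding in these cells. The motifs are known from UPR promoters and the 34 genes were chosen for the UPR and ER folding. A higher share among them therefore follows at least in part from that choice and is not a result of these data.

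The 7 genes with ERSE were the folding genes HSP90B1, CRELD2, HSPA5, PDIA6, CALR and CANX, and the transcription factor XBP1. Their matches are shown to let the constant ends and the spacer be compared. Letters are those of the gene's own strand from 5′ to 3′, so that a match on the other strand begins with CGTGG and ends with ATTGG. HSP90B1 held 2 matches.
HSP90B1, chr12:103930216-103930234: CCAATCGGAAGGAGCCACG
HSP90B1, chr12:103930321-103930339: CGTGGTGCGGCGCGATTGG
CRELD2, chr22:49918554-49918572: CGTGGCGAACTCGGATTGG
HSPA5, chr9:125241391-125241409: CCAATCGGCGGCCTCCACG
PDIA6, chr2:10812853-10812871: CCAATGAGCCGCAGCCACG
CALR, chr19:12938384-12938402: CGTGGTCGACCATCATTGG
CANX, chr5:179698778-179698796: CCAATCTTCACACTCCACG
XBP1, chr22:28800603-28800621: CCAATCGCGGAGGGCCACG
In GRCh38 these matches lay between 34 and 225 bases before a start of their gene, except that CANX has several annotated starts, from 1 of which the same match reached 9 bases past it. The CRELD2 match was also found in the window of ALG12, a neighbouring gene read in the other direction that encodes a mannosyltransferase of the ER.

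For 6 genes, the stretch around the motif is printed as an example of each arrangement, with the motif in capitals and the rest in lower case. CRELD2, HYOU1, HSPA5 and PDIA6 are the folding genes with the most negative fold changes whose match lay outside annotated exons, HERPUD1 is the ERAD gene with a match, and XBP1 is the bZIP factor with one ahead of its start. HERPUD1 carries CARE, read on the other strand, followed by ERSE-II, and HYOU1 carries ERSE-II at 2 places, the first of which overlaps with its UPRE.
CRELD2, chr22:49918454-49918633, plus strand: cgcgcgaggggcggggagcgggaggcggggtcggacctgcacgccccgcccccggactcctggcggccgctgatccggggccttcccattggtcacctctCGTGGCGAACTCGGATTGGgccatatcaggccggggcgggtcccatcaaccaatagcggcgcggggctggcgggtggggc
HYOU1, chr11:119057228-119057455, minus strand: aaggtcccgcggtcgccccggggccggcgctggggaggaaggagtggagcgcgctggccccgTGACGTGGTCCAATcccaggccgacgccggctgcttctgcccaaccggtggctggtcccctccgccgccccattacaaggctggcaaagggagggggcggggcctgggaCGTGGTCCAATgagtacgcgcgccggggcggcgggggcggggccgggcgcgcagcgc
HSPA5, chr9:125241383-125241509, minus strand: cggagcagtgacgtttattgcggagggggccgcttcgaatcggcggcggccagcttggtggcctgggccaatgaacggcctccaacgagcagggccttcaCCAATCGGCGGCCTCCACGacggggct
PDIA6, chr2:10812840-10812971, minus strand: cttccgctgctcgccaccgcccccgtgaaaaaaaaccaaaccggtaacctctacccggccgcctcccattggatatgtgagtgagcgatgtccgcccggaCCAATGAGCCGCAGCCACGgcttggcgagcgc
HERPUD1, chr16:56931892-56932135, plus strand: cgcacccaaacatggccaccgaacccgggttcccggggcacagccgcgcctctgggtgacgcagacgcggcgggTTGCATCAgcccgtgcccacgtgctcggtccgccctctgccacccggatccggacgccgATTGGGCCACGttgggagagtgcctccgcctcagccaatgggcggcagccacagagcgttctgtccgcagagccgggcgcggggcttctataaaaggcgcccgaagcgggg
XBP1, chr22:28800598-28800682, minus strand: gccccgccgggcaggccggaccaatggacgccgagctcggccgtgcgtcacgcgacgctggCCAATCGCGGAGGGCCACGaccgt

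**Figure D2:**
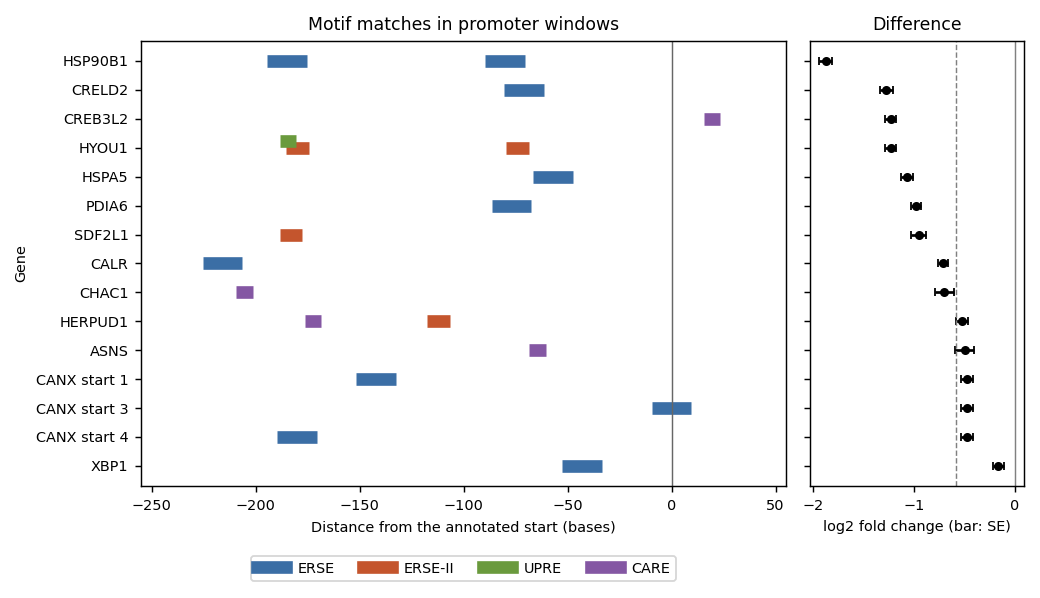
Left, position of each motif match in the promoter window of the genes that hold one, in bases from the annotated start (0). Right, log2 fold change of the same gene (LNCaP-enzaR over parental) with its standard error, where the dashed line marks 1.5-fold lower. Genes are ordered by fold change, from HSP90B1 (−1.87) to XBP1 (−0.16), and all values lie below 0, as do 27 of all 34 genes.

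Genes with ERSE or ERSE-II were counted among and outside the 34. Among all tested genes, 19.5% were lower and 23.3% were higher past the threshold. Of the 10 among them, 7 were lower past the threshold and their median was −0.97. Of 23 other tested genes with either motif, 3 were lower (13%) and 4 were higher (17.4%), with a median of −0.02. Within the folding genes that had a window, the 8 with either motif had a median of −1.02 (7 lower) and the 7 without it −1.06 (5 lower). Of 349 tested genes outside the 34 with CARE, 82 were lower (23.5%) and 88 were higher (25.2%), with a median of −0.09. Of 138 with UPRE, 30 were lower (21.7%) and 25 were higher (18.1%), with a median of −0.10. These shares outside the 34 lay near those of all tested genes. These medians were not tested. ALG12, which shares its match with CRELD2, was at 26.2 ± 0.236 CPM in parental cells and at 22.5 ± 1.12 CPM in LNCaP-enzaR (log2 fold change −0.22 ± 0.067, adjusted p = 0.00991), short of the fold limit, while CRELD2 fell by 1.28 on the log2 scale.

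The mRNAs of the 3 sensors lay above parental levels in LNCaP-enzaR, and that of PERK was past the threshold. EIF2AK3, which encodes PERK (ENSG00000172071.15, chromosome 2, 88556741 to 88691518, GRCh38), was at 33.1, 34.05 and 31.5 CPM in the parental libraries and 54.8, 60.8 and 59.3 CPM in LNCaP-enzaR. Every LNCaP-enzaR library was above every parental one, and the rise was 1.77-fold (log2 fold change 0.83 ± 0.065, adjusted p = 4.53e-08). ERN1, which encodes IRE1 (ENSG00000178607.17, chromosome 17, 64039080 to 64130819), was at 28.7, 28.7 and 32.2 CPM in the parental libraries and 41.6, 44.5 and 43.5 CPM in LNCaP-enzaR. The lines did not overlap, but the difference of 1.45-fold was short of the fold limit (log2 fold change 0.53 ± 0.068, adjusted p = 7.82e-06). With libraries scaled by their upper quartile ERN1 was at 0.63 and past it. ATF6 (ENSG00000118217.7, chromosome 1, 161766298 to 161977574) was at 65.4, 62.8 and 62.96 CPM in the parental libraries and 85.1, 88.5 and 86.1 CPM in LNCaP-enzaR. It too was separated between the lines without reaching 1.5-fold (log2 fold change 0.44 ± 0.055, adjusted p = 5.79e-06). The median of the 3 sensors was 0.53. Their summed level was 126 ± 0.864 CPM in parental cells and 188 ± 6.16 CPM in LNCaP-enzaR. Of all tested genes, 23.3% were higher past the threshold and 70.6% had libraries that did not overlap between the lines. ERN1, ATF6 and the sensor median lay within the quartiles of all tested genes (−0.51 to 0.64), while EIF2AK3 lay above them.

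Of the 3 genes placed in the bZIP role, 2 fell, where 19.5% of all tested genes were lower past the threshold. The bZIP proteins placed in other roles did not fall past it. DDIT3 was higher past the threshold (log2 fold change 0.66), and ATF6 (0.44) and ATF4 (−0.55) did not pass. XBP1, the factor whose mRNA IRE1 splices (ENSG00000100219.16, chromosome 22, 28794555 to 28800597), was at 289, 283 and 265 CPM in the parental libraries and 252, 252 and 246 CPM in LNCaP-enzaR. The highest LNCaP-enzaR library was below the lowest parental one, and the difference was small (log2 fold change −0.16 ± 0.053, adjusted p = 0.015). CREB3L2, a membrane-bound factor related to ATF6 that raises genes of the secretory pathway (ENSG00000182158.15, chromosome 7, 137874979 to 138002086), was at 133, 129 and 126 CPM in the parental libraries and 55.8, 54.6 and 54.7 CPM in LNCaP-enzaR. Its level was 2.35-fold lower in LNCaP-enzaR (log2 fold change −1.23 ± 0.054, adjusted p = 9.20e-11). CREB3L4, a relative of CREB3L2 first described as an androgen-induced gene of the prostate (ENSG00000143578.16, chromosome 1, 153967534 to 153974361), was at 70.00, 71.1 and 71.05 CPM in the parental libraries and 33.1, 28.8 and 29.6 CPM in LNCaP-enzaR. It fell by a similar amount (log2 fold change −1.21 ± 0.066, adjusted p = 7.83e-10), with libraries of each line close together.

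Folding genes were lower in LNCaP-enzaR for 13 of 16 (81.2%, against 19.5% of all tested genes), and none was higher. Their median log2 fold change was −1.02. CANX, P4HB and DNAJB9 did not pass. The role as a whole made up 1.10% ± 0.0395 of a parental library and 0.545% ± 0.0174 of an LNCaP-enzaR library (mean ± SD of 3), and its summed level went from 10838 ± 371 to 5513 ± 82.4 CPM. CALR, HSPA5 and HSP90B1 together held 45.4% of the summed level of the 34 genes in parental cells and 37.6% in LNCaP-enzaR.

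**Figure D3:**
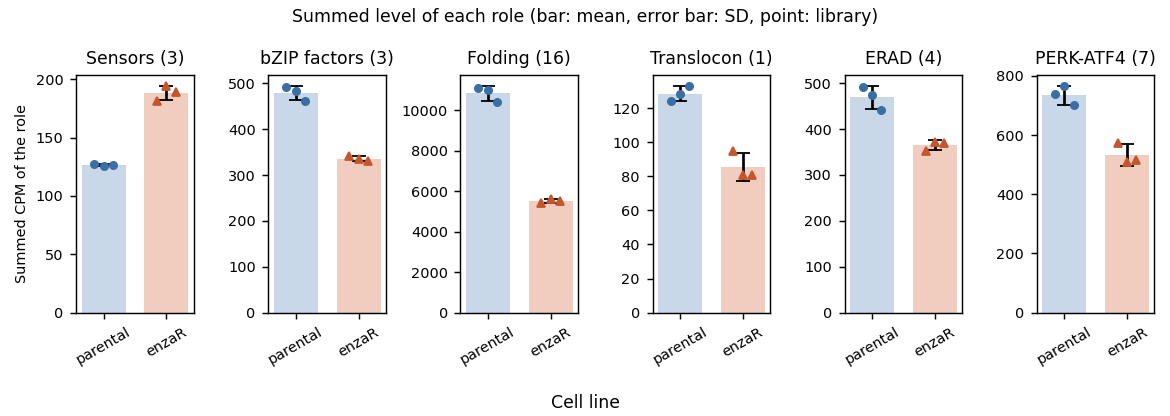
Summed CPM of the genes of each role (number of genes in parentheses). Bars are means and error bars SDs of 3 libraries per line, and points are libraries, with each panel on its own scale from 0. The folding genes go from 10838 to 5513 CPM and the sensors from 126 to 188 CPM.

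HSPA5 and HSP90B1, chaperones of the Hsp70 and Hsp90 type, fell in LNCaP-enzaR, as did HYOU1, a helper of HSPA5. Not every helper of HSPA5 fell, since the co-chaperone DNAJB9 did not pass (log2 fold change 0.16). HSPA5, the Hsp70 chaperone BiP that binds unfolded chains and the sensors (ENSG00000044574.9, chromosome 9, 125234853 to 125241382), was at 2129, 2120 and 1861 CPM in the parental libraries and 956, 983 and 983 CPM in LNCaP-enzaR. This was 2.09-fold lower in LNCaP-enzaR (log2 fold change −1.06 ± 0.059, adjusted p = 1.02e-09), with parental replicate 3 the lowest of its line. HSP90B1, the Hsp90 chaperone GRP94 (ENSG00000166598.16, chromosome 12, 103930107 to 103953931), was at 1942, 1858 and 1777 CPM in the parental libraries and 461, 538 and 523 CPM in LNCaP-enzaR. It fell 3.67-fold (log2 fold change −1.87 ± 0.065, adjusted p = 7.37e-12), and the highest LNCaP-enzaR library was far below the lowest parental one. HYOU1, also known as GRP170, exchanges nucleotide on BiP (ENSG00000149428.19, chromosome 11, 119044188 to 119057227) and was at 489, 486 and 475 CPM in the parental libraries and 217, 200.1 and 201 CPM in LNCaP-enzaR. Its fall was close to that of CREB3L2 in size (log2 fold change −1.23 ± 0.053, adjusted p = 7.85e-11).

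Co-chaperones carrying a J domain, which stimulate BiP, fell in 2 of 3 cases, a small count beside the 19.5% of all tested genes that were lower. DNAJC3, which also inhibits PERK (ENSG00000102580.15, chromosome 13, 95677139 to 95794988), was at 123, 115 and 103 CPM in the parental libraries and 48.8, 58.2 and 56.2 CPM in LNCaP-enzaR. It fell 2.09-fold (log2 fold change −1.06 ± 0.079, adjusted p = 2.51e-08) while the mRNA of its target PERK rose. DNAJB11 also fell, from 84.9 ± 4.98 to 44.8 ± 3.72 CPM (log2 fold change −0.92 ± 0.071, adjusted p = 3.79e-08). DNAJB9, a co-chaperone known as a target of XBP1, was at 28.1 ± 1.501 CPM in parental cells and 31.3 ± 3.103 CPM in LNCaP-enzaR, and its libraries overlapped (log2 fold change 0.16 ± 0.080, adjusted p = 0.102). SDF2L1, which works in a complex with DNAJB11, fell from 87.6 ± 3.58 to 45.4 ± 4.73 CPM (log2 fold change −0.95 ± 0.074, adjusted p = 4.07e-08).

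Protein disulfide isomerases, which form and rearrange disulfide bonds, ranged from no call to the deepest fall among the 34 genes. AGR2, an isomerase of secretory epithelia needed for mucin production (ENSG00000106541.12, chromosome 7, 16791811 to 16833433), was at 73.4, 73.6 and 70.3 CPM in the parental libraries and 1.56, 1.71 and 1.42 CPM in LNCaP-enzaR. The libraries of each line were close together and far from those of the other, and the fitted fall was 46.3-fold (log2 fold change −5.53 ± 0.087, adjusted p = 3.72e-15). Only 0.619% of tested genes had a more negative fold change. Without AGR2, the median of the remaining folding genes was −0.98.

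PDIA4 (ENSG00000155660.11, chromosome 7, 149003062 to 149028662) was at 702, 718 and 658 CPM in the parental libraries and 160.1, 168 and 171 CPM in LNCaP-enzaR. It fell 4.17-fold (log2 fold change −2.06 ± 0.056, adjusted p = 7.98e-13), more than any other of the 34 except AGR2. PDIA6 fell from 387 ± 5.16 to 196 ± 7.19 CPM (log2 fold change −0.98 ± 0.052, adjusted p = 5.78e-10) and PDIA3, the isomerase that works with calreticulin and calnexin, from 855 ± 18.1 to 548 ± 31.6 CPM (log2 fold change −0.64 ± 0.055, adjusted p = 1.15e-07). Scaling by the upper quartile left PDIA3 at −0.54, under that limit. P4HB, the founding member of the family and also a subunit of collagen prolyl hydroxylase, was at 881 ± 11.4 CPM in parental cells and 748 ± 41.3 CPM in LNCaP-enzaR and did not reach 1.5-fold (log2 fold change −0.24 ± 0.054, adjusted p = 0.00135).

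Of the lectin chaperones, which bind the sugars of new glycoproteins, 1 of 2 passed, where 42.7% of all tested genes did. CALR, soluble calreticulin, fell from 1905 ± 35.5 to 1161 ± 22.2 CPM (log2 fold change −0.71 ± 0.049, adjusted p = 9.39e-09). CANX, its membrane-bound relative calnexin, was at 993 ± 38.4 CPM in parental cells and 715 ± 46.2 CPM in LNCaP-enzaR, with separated libraries and a change short of 1.5-fold (log2 fold change −0.47 ± 0.058, adjusted p = 5.30e-06).

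Both of the small ER proteins MANF and CRELD2, which are induced and secreted in ER stress, were lower. This is a small count beside the 19.5% of all tested genes that were lower. MANF (ENSG00000145050.19, chromosome 3, 51385291 to 51389397) was at 268, 281 and 245 CPM in the parental libraries and 70.5, 78.2 and 75.3 CPM in LNCaP-enzaR, a fall of 3.55-fold (log2 fold change −1.83 ± 0.065, adjusted p = 1.02e-11). CRELD2 (ENSG00000184164.15, chromosome 22, 49918167 to 49927540) was at 94.6, 95.7 and 93.4 CPM in the parental libraries and 42.3, 36.6 and 38.4 CPM in LNCaP-enzaR, a fall of 2.42-fold (log2 fold change −1.28 ± 0.064, adjusted p = 3.73e-10). In both genes the parental libraries were all more than 2 times above every LNCaP-enzaR library.

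**Figure D4:**
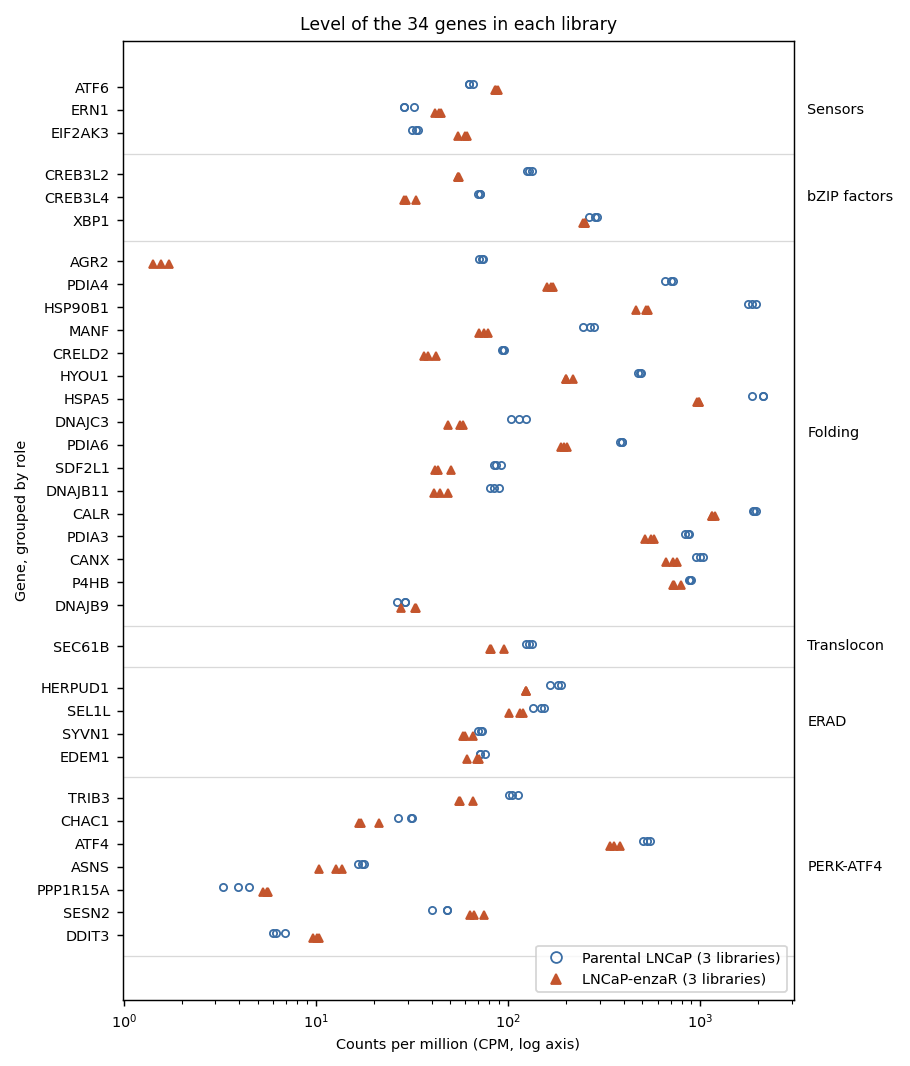
CPM of each of the 34 genes on a log axis, with parental libraries as open circles and LNCaP-enzaR libraries as triangles (3 each), grouped by role. The groups are apart for every gene but DNAJB9, and AGR2 has the widest gap (70.3 to 73.6 CPM against 1.42 to 1.71 CPM).

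SEC61B, a subunit of the translocon, was at 129 ± 4.401 CPM in parental cells and 85.5 ± 8.14 CPM in LNCaP-enzaR (log2 fold change −0.59 ± 0.068, adjusted p = 2.86e-06). It lay at the fold limit: 8 of 15 alternative settings put it short of 1.5-fold, with values from −0.66 to −0.49 over the 15.

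None of the 4 ERAD genes passed the threshold, a small count beside the 42.7% of all tested genes that did, and their median was −0.30. HERPUD1, an organiser of the ubiquitin ligase complex, came nearest, at 179 ± 12.4 CPM in parental cells and 124 ± 0.334 CPM in LNCaP-enzaR (log2 fold change −0.52 ± 0.059, adjusted p = 2.23e-06). SEL1L, the adaptor of that complex, was at 146 ± 9.901 CPM in parental cells and 112 ± 9.75 CPM in LNCaP-enzaR (log2 fold change −0.37 ± 0.071, adjusted p = 0.000342). SYVN1, the ligase HRD1 itself, was at 71.9 ± 1.602 CPM in parental cells and 61.2 ± 4.09 CPM in LNCaP-enzaR (log2 fold change −0.23 ± 0.062, adjusted p = 0.00435), and EDEM1, which directs misfolded glycoproteins to it, was at 72.8 ± 2.32 CPM in parental cells and 66.8 ± 4.86 CPM in LNCaP-enzaR (log2 fold change −0.12 ± 0.065, adjusted p = 0.109). In all 4 genes every LNCaP-enzaR library was below every parental library, but 70.6% of all tested genes were separated in one direction or the other. The summed level of the role, 469 ± 25.3 against 365 ± 10.5 CPM, stayed within a factor of 1.29.

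The PERK-ATF4 branch held genes on both sides of 0. ATF4, the factor translated when eIF2α is phosphorylated (ENSG00000128272.17, chromosome 22, 39519695 to 39522683), was at 529.5, 545 and 502 CPM in the parental libraries and 384, 341 and 354 CPM in LNCaP-enzaR. The libraries of the lines were apart, and the difference of 1.46-fold was just short of the fold limit (log2 fold change −0.55 ± 0.058, adjusted p = 1.21e-06). It was −0.59 and past the limit when LNCaP-enzaR replicate 1 was left out. DDIT3, the factor CHOP that acts downstream of ATF4 (ENSG00000175197.13, chromosome 12, 57516588 to 57521737), was at 6.87, 6.22 and 5.98 CPM in the parental libraries and 10.2, 10.3 and 9.705 CPM in LNCaP-enzaR. All 3 LNCaP-enzaR libraries were above the parental ones, and the rise was 1.58-fold (log2 fold change 0.66 ± 0.091, adjusted p = 1.69e-05). DDIT3 is the gene of the 34 for which overlap matters most beside ASNS, since 39.6% of its exonic bases lie in exons of other genes, MARS1 on the opposite strand among them.

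Among targets of ATF4 and CHOP, TRIB3, a pseudokinase, fell from 106 ± 5.701 to 59.1 ± 5.59 CPM (log2 fold change −0.85 ± 0.072, adjusted p = 1.03e-07), and CHAC1, an enzyme that breaks down glutathione, fell from 29.9 ± 2.71 to 18.4 ± 2.48 CPM (log2 fold change −0.70 ± 0.096, adjusted p = 1.69e-05). ASNS, asparagine synthetase, was at 17.3 ± 0.55 CPM in parental cells and 12.3 ± 1.74 CPM in LNCaP-enzaR and did not pass (log2 fold change −0.50 ± 0.097, adjusted p = 0.000422). Its value is uncertain, because 49.3% of its exonic bases are shared with a long noncoding RNA gene and because the pseudogene ASNSP1 held reads equal to 16.4% of those of ASNS. PPP1R15A, the subunit GADD34 that directs a phosphatase to eIF2α, was at 3.905 ± 0.599 CPM in parental cells and 5.51 ± 0.176 CPM in LNCaP-enzaR (log2 fold change 0.50 ± 0.124, adjusted p = 0.00265). SESN2, a stress-induced inhibitor of mTORC1 signalling, was at 45.4 ± 4.57 CPM in parental cells and 68.1 ± 5.97 CPM in LNCaP-enzaR (log2 fold change 0.58 ± 0.082, adjusted p = 2.03e-05), and 11 of 15 alternatives put it past the fold limit. Upper-quartile scaling, or leaving out parental replicate 3, gave 0.60 for PPP1R15A and put it past that limit too. Over the 7 genes 2 were lower, 1 was higher and the median was −0.50, and with SESN2 counted, as under most alternatives, 2 would be higher. The share of the branch past the threshold in either direction was 42.9%, beside 42.7% of all tested genes.

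Reads of overlapping genes could affect a few more of the 34. The share of exonic bases within exons of another gene was 25.2% for PDIA6, 14.2% for DNAJB11 and 12.9% for CREB3L4, and 9.99% or less for the others not yet named. The strand setting of the counting was not given in the sources used here. Pseudogenes named for one of the 34 genes, other than ASNSP1, held reads equal to at most 0.80% of their parent gene.

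Levels of different genes can be compared per transcript length, as RPKM (reads per kilobase of transcript per 1000000, with the length of the canonical transcript). CALR was the most abundant of the 34 in both lines, at 1002 ± 18.7 RPKM in parental cells and 611 ± 11.7 RPKM in LNCaP-enzaR. HSP90B1 was the second in parental cells (668 ± 29.6 RPKM) and the fifth in LNCaP-enzaR (182 ± 14.5 RPKM), where its range overlapped with that of SEC61B. HSPA5 was the third in parental cells (519 ± 38.8 RPKM) and the fourth in LNCaP-enzaR (248 ± 3.99 RPKM), where its range overlapped with that of ATF4 (253 ± 15.6 RPKM). P4HB (362 ± 4.67 and 307 ± 16.9 RPKM) took the fifth place in parental cells, next to ATF4 with which its range overlapped, and the second in LNCaP-enzaR. AGR2 (42.7 ± 1.10 and 0.922 ± 0.0851 RPKM) took place 19 in parental cells and the last place in LNCaP-enzaR. The sensors took places 29 (ATF6), 30 (EIF2AK3) and 33 (ERN1) of 34 in parental cells and 26, 24 and 31 in LNCaP-enzaR, with levels from 3.79 to 8.53 RPKM in parental cells and from 5.47 to 12.9 RPKM in LNCaP-enzaR. Of 33 pairs of neighbours in the order, 12 had overlapping libraries in parental cells and 20 in LNCaP-enzaR. With the union of all annotated exons as the length, a choice made after seeing the data, CALR stayed in place 1 in both lines but HSP90B1 took places 5 and 12 and P4HB places 11 and 6.

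A further 132 genes of the same processes were listed by function to set the 34 in context. Of these, 131 were in the table and 128 were tested, 37 were lower and 8 were higher past the threshold, and their median was −0.27. Lower genes were most frequent in the lists of folding (12 of 30 lower, 2 higher, median −0.45), translocon and glycosylation (11 of 25 lower, none higher, median −0.47) and ATF4 targets of amino acid supply (7 of 15 lower, none higher, median −0.60), each read against the 19.5% of all tested genes that were lower. The lists of ERAD (2 of 21 lower, 3 higher, median −0.04), sensors and regulators (1 of 11 lower, 1 higher, median 0.02), ATF4 stress targets (3 of 14 lower, 2 higher, median −0.23) and aminoacyl-tRNA synthetases (1 of 12 lower, none higher, median −0.07) made up the rest. Counts and medians of lists were not tested.

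**Figure D5:**
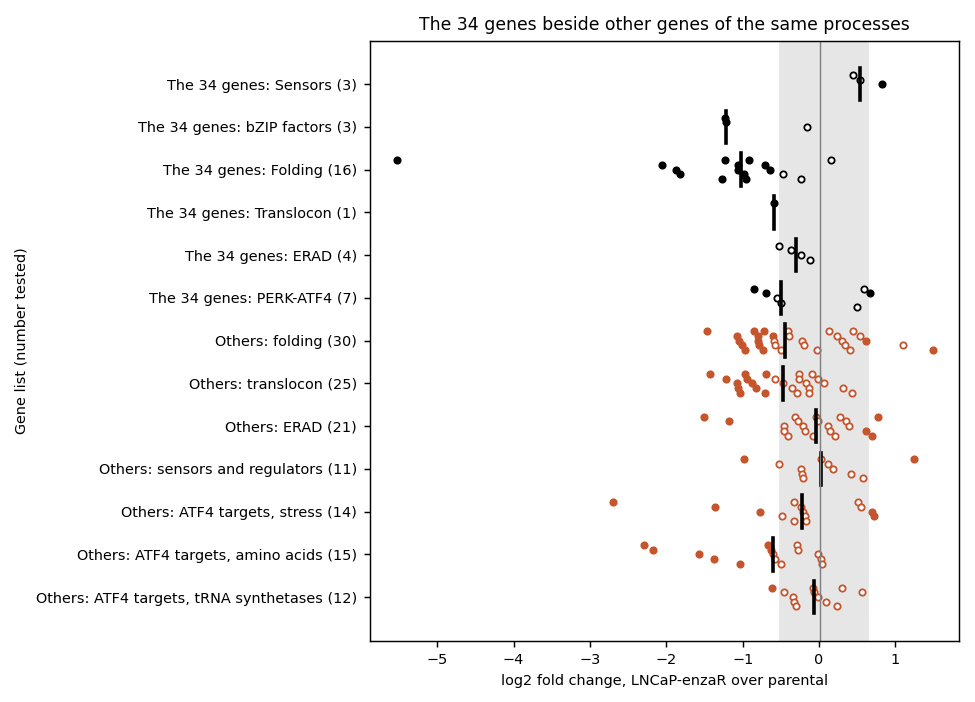
log2 fold change (LNCaP-enzaR over parental) of each gene in the 6 roles of the 34 genes (black) and in 7 lists of other genes (orange), with the number tested in parentheses. Filled points are past the threshold, short vertical bars are list medians, and the grey band spans the quartiles of all tested genes (−0.51 to 0.64). The 16 folding genes of the 34 have a median of −1.02 and the other folding genes of −0.45.

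Among the other folding genes, DNAJC10, a J-domain protein with reductase activity, went from 139.9 ± 10.2 to 50.8 ± 5.39 CPM (log2 fold change −1.46 ± 0.080, adjusted p = 8.52e-10), and UGGT1, the enzyme that marks unfolded glycoproteins with glucose, from 125 ± 2.43 to 60.4 ± 1.81 CPM (log2 fold change −1.05 ± 0.055, adjusted p = 5.43e-10). MOGS, the glucosidase that starts the trimming of their sugars, rose from 31.4 ± 2.92 to 48.1 ± 4.31 CPM (log2 fold change 0.62 ± 0.082, adjusted p = 1.19e-05). In the translocon list the lowest values were those of SPCS3, a subunit of signal peptidase (log2 fold change −1.43 ± 0.092, adjusted p = 5.31e-09), and SEC63, a J-domain partner of the channel (log2 fold change −1.22 ± 0.067, adjusted p = 8.46e-10). Around ERAD, the ubiquitin-conjugating enzyme UBE2J1 fell (log2 fold change −1.51 ± 0.069, adjusted p = 1.36e-10) while the mannosidase MAN1B1 (log2 fold change 0.78 ± 0.062, adjusted p = 6.02e-08) and the lectin ERLEC1 (log2 fold change 0.69 ± 0.087, adjusted p = 6.33e-06) rose. Of the regulators, WFS1, an ER membrane protein that restrains ATF6, rose from 44.9 ± 1.39 to 106 ± 11.3 CPM (log2 fold change 1.24 ± 0.074, adjusted p = 2.17e-09), and EIF2AK4, the eIF2α kinase GCN2 that senses amino acid shortage, fell from 193 ± 1.301 to 97.3 ± 2.303 CPM (log2 fold change −0.99 ± 0.052, adjusted p = 5.46e-10).

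Among ATF4 targets averaging 5 CPM or more, the deepest falls were in transporters of amino acids. SLC7A11, the cystine carrier, went from 257 ± 3.84 to 52.3 ± 7.95 CPM (log2 fold change −2.30 ± 0.089, adjusted p = 2.26e-11), and SLC7A5, a carrier of large neutral amino acids, from 20.6 ± 0.428 to 4.54 ± 0.491 CPM (log2 fold change −2.18 ± 0.092, adjusted p = 5.43e-11). EIF4EBP1, a repressor of translation initiation, fell from 157 ± 3.22 to 61.1 ± 3.84 CPM (log2 fold change −1.36 ± 0.060, adjusted p = 8.79e-11) and STC2, a secreted glycoprotein, fell less (log2 fold change −0.77 ± 0.067, adjusted p = 1.37e-07). ATF3, a stress-induced bZIP factor, rose from 26.4 ± 1.71 to 43.6 ± 1.85 CPM (log2 fold change 0.72 ± 0.069, adjusted p = 3.86e-07), as did KLHL24 (log2 fold change 0.70 ± 0.088, adjusted p = 6.93e-06). MARS1, the methionyl-tRNA synthetase whose exons overlap those of DDIT3, was the only synthetase past the threshold (log2 fold change −0.62 ± 0.054, adjusted p = 1.49e-07).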

How the data were processed

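Polyadenylated RNA libraries were sequenced as paired reads. The authors trimmed adapters with Cutadapt 4.5, aligned to GRCh38.p13 with STAR 2.7.11a and GENCODE v38, and counted with featureCounts 2.0.2 (versions per the submitters' notes and the methods of the study). The deposited values are raw counts per gene, not normalized. The unnamed last columns of the table are empty. Groups and replicate numbers were read from sample titles.

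Counts were tested with edgeR 4.0.16 in R 4.3.3 (filterByExpr, TMM, robust quasi-likelihood F-test, no covariates, Benjamini-Hochberg adjustment over 19711 genes). The filter kept 99.96% of the counts. The threshold joined an adjusted p of up to 0.05 with a fold of 1.5 or more, the limits in the study's methods, which name DESeq2, run here (1.42.0) as an alternative. Values are mean ± SD of CPM (n = 3 each). Whether the 3 flasks of a line were independent cultures is not stated beyond their being called biological replicates, so p-values measure the spread between these samples. Between libraries of a line, counts differed by 5.56 to 35.6 in chi-square per degree of freedom, so no library was a duplicate. Totals of 77759122 to 98616465 counts per library make 1 count worth at most 0.0127 CPM, and limits of this kind cover counting error only.

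The strand setting and the handling of multiply mapped reads are not given in the sources used here. Of the table's genes, 35473 were found in GENCODE v44, a later annotation of the same build, which was used for canonical transcript lengths and exon overlap only. Its coordinates matched the table's for 32 of the 34 genes, and coordinates of genes in the text are the table's. Promoter windows and motif matches are from RefSeq (GRCh38.p14). Printed stretches reach up to 100 bases to each side of a motif, are cut at the nearest annotated exon and end before the start site.

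The 34 genes, their roles and the lists of other genes were chosen with earlier results of these data known. Every one of the 34 is named. Of the other genes, those named are the 2 highest and the 2 lowest fold changes of each list past the threshold with a mean of at least 5 CPM. ALG12 and the cell type markers were named for their position and as a check. Full values are given for genes with a fold of at least 2, for the sensors and for XBP1, ATF4, DDIT3 and HSPA5. Counts were also simulated from these libraries (19220 genes tested, 200 changed). At an adjusted p of at most 0.05, without the fold limit, the edgeR test recovered 90% of genes changed 1.5-fold. It recovered 100% of those changed 2-fold, with 11 false calls. Far fewer genes were changed than the 42.7% past the threshold in these data. The simulation therefore does not give the performance of the full threshold here. A further marker gene is not reported here.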

Additional observations from a re-analysis of the deposited data

How the results depend on the processing

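Of the 34 genes, 28 kept their call under all 15 alternatives (DESeq2, RLE size factors, scaling by library totals or by the upper quartile, all genes kept, a minimum of 10 counts in every library, only protein-coding genes, no mitochondrial genes, a replicate block, and each library left out in turn), and none changed sign. The 6 others were PDIA3, SEC61B, ERN1, ATF4, PPP1R15A and SESN2, all near the fold limit. Upper-quartile scaling, which shifted all genes by 0.10, gave 5 genes higher past the threshold where the reported count was 2, 2 higher sensors, 3 higher PERK-ATF4 genes and 13 higher among the other genes. Under it the medians were −0.52 (all 34), −0.92 (folding), −0.20 (ERAD), 0.63 (sensors), −1.11 (bZIP factors) and −0.39 (PERK-ATF4). DESeq2, RLE size factors, at least 10 counts, no mitochondrial genes, protein-coding genes and the replicate block each gave 2 higher PERK-ATF4 genes, as SESN2 passed. Leaving out each library in turn gave 1 to 2 higher PERK-ATF4 genes and medians of −1.06 to −0.99 (folding), 0.50 to 0.58 (sensors) and −0.57 to −0.38 (PERK-ATF4). The count of lower genes among the 34 stayed between 16 and 19.

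The replicate numbers are shared by the lines, but no pairing was visible in the counts. The correlations of deviations of same-numbered libraries were −0.065, −0.00041 and −0.051. Such values cannot show whether same-numbered flasks were handled together. With the number as a block the count of higher PERK-ATF4 genes was 2, the gene added being SESN2 (0.59). No result was weighed for a cause: 1 resistant line, 3 libraries a group, an unstated strand setting and an unstated drug status at harvest limit what these values can be compared with.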
